A study of Mus musculus with 375 samples.

Results

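Lyz1, Itln1, Ang4, Mmp7, Pnliprp2 and Nupr1 are genes expressed in Paneth cells of the mouse small intestine that are not defensins. All 6 were found by symbol among the 23416 uniquely named genes of the deposited table, and each was followed over the 367 of 375 cells that had at least 2000 genes above 0 in TPM, a measure of transcript abundance scaled to transcript length and to the total of the cell. The study fed mice a high-fat diet (HFD) or a control diet, sorted Lgr5-positive small intestinal cells by flow cytometry, and sequenced each cell by Smart-seq2, a plate method that makes full-length cDNA from a cell in its own well. The titles name the sets HFD 1, HFD 2, control 1 and control 2, which gave 91, 92, 93 and 91 passing cells. Strain, age, sex, the time on the diet and the Lgr5 reporter are not stated by these sources, and neither is whether a set is 1 mouse. The unit of the p-values is therefore the set, and the spread between sets may be technical. A cell held a gene at 1 TPM or more and was called defensin-positive when it held any of 29 alpha-defensin and defensin-like genes. There were 48 and 47 defensin-positive cells in HFD 1 and HFD 2, and 30 and 31 in control 1 and control 2.

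Paneth cells sit at the base of the crypt between the Lgr5-positive stem cells, and their granules carry alpha-defensins together with other antimicrobial proteins and enzymes. They arise from the secretory lineage of the stem cells, which also gives rise to goblet cells, the mucus-making cells of the epithelium. Lyz1 encodes the Paneth cell lysozyme, an enzyme that cleaves bacterial peptidoglycan, and Itln1 encodes intelectin, a lectin that binds microbial glycans. Ang4 encodes an antimicrobial ribonuclease of the angiogenin family. Mmp7 encodes matrilysin, the metalloproteinase that cleaves mouse pro-alpha-defensins into their active form. Pnliprp2 encodes a pancreatic lipase-related protein that hydrolyses dietary lipids, and Nupr1 encodes a small stress-induced nuclear protein.

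On GRCm38, with GENCODE M21 gene models, Lyz1 lies at chr10:117287797-117292868, Itln1 at chr1:171518122-171535294, Ang4 at chr14:51763878-51773590 and Nupr1 at chr7:126623249-126630861, all on the minus strand. Mmp7 lies at chr9:7692090-7699585 and Pnliprp2 at chr19:58759719-58777534, both on the plus strand. Lyz1 has a near copy next to it, Lyz2, the lysozyme of macrophages, at chr10:117277331-117282321. Their coding sequences are 444 bases each, and 22 of these bases differ, an identity of 95.05%. The stretch from coding base 61 to 120 of the GENCODE transcripts shows what tells their reads apart, with the 9 bases that differ in it in capitals.
Lyz1: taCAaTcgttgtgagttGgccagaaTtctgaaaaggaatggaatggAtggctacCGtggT
Lyz2: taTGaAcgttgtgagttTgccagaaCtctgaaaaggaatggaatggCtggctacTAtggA
Lyz2 itself was held by 1 cell of HFD 1, no cell of HFD 2, 1 cell of control 1 and 1 cell of control 2. How the authors' counting shared reads between the 2 genes is not stated.

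Lyz1, Itln1 and Ang4 were the 3 of the 6 genes whose levels correlated most over cells. The 100 bases before the RefSeq start of these 3 genes and of Mmp7 are given so that their core promoters can be compared. They are from RefSeq on GRCm38.p6, written 5′ to 3′ on each gene's strand, and capitals mark the motif TATAAA. Lyz1 is at chr10:117292869-117292968, Itln1 at chr1:171535295-171535394, Ang4 at chr14:51773591-51773690 and Mmp7 at chr9:7691990-7692089.
Lyz1: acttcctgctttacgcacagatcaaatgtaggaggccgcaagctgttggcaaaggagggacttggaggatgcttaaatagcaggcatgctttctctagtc
Itln1: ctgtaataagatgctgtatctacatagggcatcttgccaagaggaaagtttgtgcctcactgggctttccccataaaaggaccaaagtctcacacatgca
Ang4: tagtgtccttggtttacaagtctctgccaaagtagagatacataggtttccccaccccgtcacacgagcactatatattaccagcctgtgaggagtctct
Mmp7: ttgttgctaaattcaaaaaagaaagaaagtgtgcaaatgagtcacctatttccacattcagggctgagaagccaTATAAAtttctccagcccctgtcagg
All 6 genes had a RefSeq promoter entry, from 250 bases before to 50 bases after the start. TATAAA, searched on both strands, was present for Mmp7 at -123 and -26 and for none of the other 5 genes, and 13.6% of 32851 promoters hold it. CTTTGA, the core of the motif bound by the Wnt effector TCF4, was present for Mmp7 and Pnliprp2, and 16% of promoters hold it. The E-box form CAGNTG was present for Lyz1, Ang4, Pnliprp2 and Nupr1, and 51.4% of promoters hold it. No match of 1 motif overlapped a match of another in these promoters, and a match describes letters only.

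The median cell had 6855 and 6347.5 genes above 0 in HFD 1 and HFD 2, and 6893 and 6129 in control 1 and control 2. The number of reads per cell cannot be recovered from TPM and is unknown. Lgr5 was held by 87 cells in each HFD set, and by 89 and 85 cells in control 1 and control 2. The ribosomal precursor Rn45s took 26.9% and 18.6% of all TPM in HFD 1 and HFD 2, against 39.1% and 24.6% in control 1 and control 2, and the median gene was 0.13 higher in HFD on the log2 scale (-0.05 with Rn45s left out of the totals). The leukocyte genes Tyrobp and Ptprc were held by no cell and by 1 cell, and the acinar genes Pnlip and Prss2 were listed at 0 in every passing cell. A single HFD 1 cell stands apart: defensins made up 81.2% of its TPM, it held all 6 Paneth cell genes, and it alone gave 84.1% of the Lyz1, 85.3% of the Itln1 and 74.7% of the Ang4 summed over HFD 1. The same cell had 9523 genes above 0 and 3.96 TPM of Lgr5. Values without it are given beside the levels, fold changes and counts that it moves most.

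The mean level of Lyz1 and Itln1 was higher in HFD than in control, and no difference in level passed the test for Ang4, Mmp7, Pnliprp2 or Nupr1. In the share of cells that held them both HFD sets lay above both control sets for 5 of the 6 genes, all but Nupr1, against 14.4% of all genes tested. The exact permutation test used for shares cannot pass with 4 sets. Set means were compared on the scale log2(mean TPM + 1) by limma with a trend of variance on level, and p-values were adjusted by Benjamini-Hochberg over every gene that averaged 1 TPM or more. As there are few sets, limma draws much of a gene's spread from other genes of like level. Its SE and p-value can thus be smaller than the gene's own 4 set means would give. In all cells limma called 2 of the 6 genes, against 0.506% of the 11665 genes tested. Fold changes between diets are of HFD over control on this scale, where the added 1 shrinks the change of low genes.

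Lyz1 was held by 31 of 91 cells of HFD 1 (34.1%, 95% Clopper-Pearson interval 24.4 to 44.8%) and by 22 of 92 cells of HFD 2 (23.9%, 15.6 to 33.9%). In control it was held by 11 of 93 cells of control 1 (11.8%, 6.06 to 20.2%) and by 11 of 91 cells of control 2 (12.1%, 6.19 to 20.6%). Both HFD sets were above both control sets, but with 4 sets the exact two-sided permutation test cannot go below 0.333, the value it gave. The mean level was 400.1 and 96.1 TPM in HFD 1 and HFD 2, against 11.4 and 11.1 TPM in control 1 and control 2, and again the diets did not overlap. The log2 fold change was 4.02 ± 0.39 (SE, limma adjusted p = 6.167e-07). When the highest cell of each set was left out, the means were 64.3 and 66.1 TPM in HFD and 7.47 and 7.34 TPM in control, so the sets of a diet lay close together and the diets stayed apart. Without the HFD 1 cell that stands apart the log2 fold change was 2.71 (limma adjusted p = 1.753e-07).

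Itln1 was held by 15 of 91 cells of HFD 1 (16.5%, 9.53 to 25.7%) and 17 of 92 cells of HFD 2 (18.5%, 11.2 to 27.9%), against 9 of 93 cells of control 1 (9.68%, 4.52 to 17.6%) and 5 of 91 cells of control 2 (5.49%, 1.81 to 12.4%). Its mean was 120.8 and 67.2 TPM in HFD 1 and HFD 2, against 6.17 and 2.76 TPM in control 1 and control 2. The diets did not overlap in either measure, with a log2 fold change of 4.13 ± 0.33 (SE, limma adjusted p = 3.541e-08). Its HFD 1 mean was 18.0 TPM without the cell that stands apart, and the log2 fold change 2.79 (limma adjusted p = 0.0001954). Both HFD sets lay above both control sets in mean level for 29.5% of all genes tested, and this order held for Lyz1, Itln1 and no other of the 6 genes. Lyz1 lost its call with Rn45s left out of the totals (adjusted p = 0.0537) and in limma without a trend (0.0656), and both genes lost it with no filter on low genes (0.668 each).

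Ang4 was held by 6 of 91 and 6 of 92 cells in HFD 1 and HFD 2, by 4 of 93 cells in control 1 and by 0 of 91 cells in control 2, which allows a share of up to 3.30%. Its mean was 14.5 and 3.81 TPM in HFD 1 and HFD 2, against 5.85 and 0 TPM in control 1 and control 2, so the diets overlapped. The log2 fold change of 1.72 ± 0.63 did not pass (SE, limma adjusted p = 0.301). Without the HFD 1 cell that stands apart the HFD 1 mean was 3.715 TPM, below control 1, and the log2 fold change was 0.86 (limma adjusted p = 0.581). All control cells with Ang4 were in control 1. Leaving out a set leaves 1 set for its diet, so such a fit measures no spread between sets of that diet.

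Mmp7 was held by 8 of 91 and 6 of 92 cells in HFD 1 and HFD 2, by 4 of 93 cells in control 1 and by 0 of 91 cells in control 2, again a share of up to 3.30%. Its mean was 119.1 and 9.87 TPM in HFD 1 and HFD 2, against 25.9 and 0 TPM in control 1 and control 2, and control 1 lay between the HFD sets. The log2 fold change of 2.80 ± 0.92 did not pass (SE, limma adjusted p = 0.248). It was 3.41 and was called when the highest cell of each set was left out (limma adjusted p = 0.0005732). The limit on fits with a set left out holds for Mmp7 too, as all its control cells were in control 1. In the cells that held it, Mmp7 ranged from 4.33 to 3493 TPM in HFD 1, from 5.29 to 340.7 TPM in HFD 2 and from 9.04 to 2014 TPM in control 1.

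Pnliprp2 was held by 18 of 91 and 16 of 92 cells in HFD 1 and HFD 2 (19.8% and 17.4%), against 15 of 93 and 15 of 91 cells in control 1 and control 2 (16.1% and 16.5%). Its mean was 15.2 and 11.8 TPM in HFD 1 and HFD 2, against 8.70 and 14.7 TPM in control 1 and control 2. The diets overlapped in mean level but not in share, and the log2 fold change of level was 0.22 ± 0.33 (SE, limma adjusted p = 0.849). It was 0.05 without the HFD 1 cell that stands apart (limma adjusted p = 0.971).

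Nupr1 was the rarest, with 3 and 1 cells in HFD 1 and HFD 2 and 2 and 3 cells in control 1 and control 2. Its mean was 0.780 and 0.733 TPM in HFD 1 and HFD 2, against 3.52 and 2.60 TPM in control 1 and control 2. Both HFD means lay below both control means, and the log2 fold change of -1.20 ± 0.48 did not pass (SE, limma adjusted p = 0.359). The control values rest on 5 cells, the highest at 269.1 TPM.

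**Figure D1:**
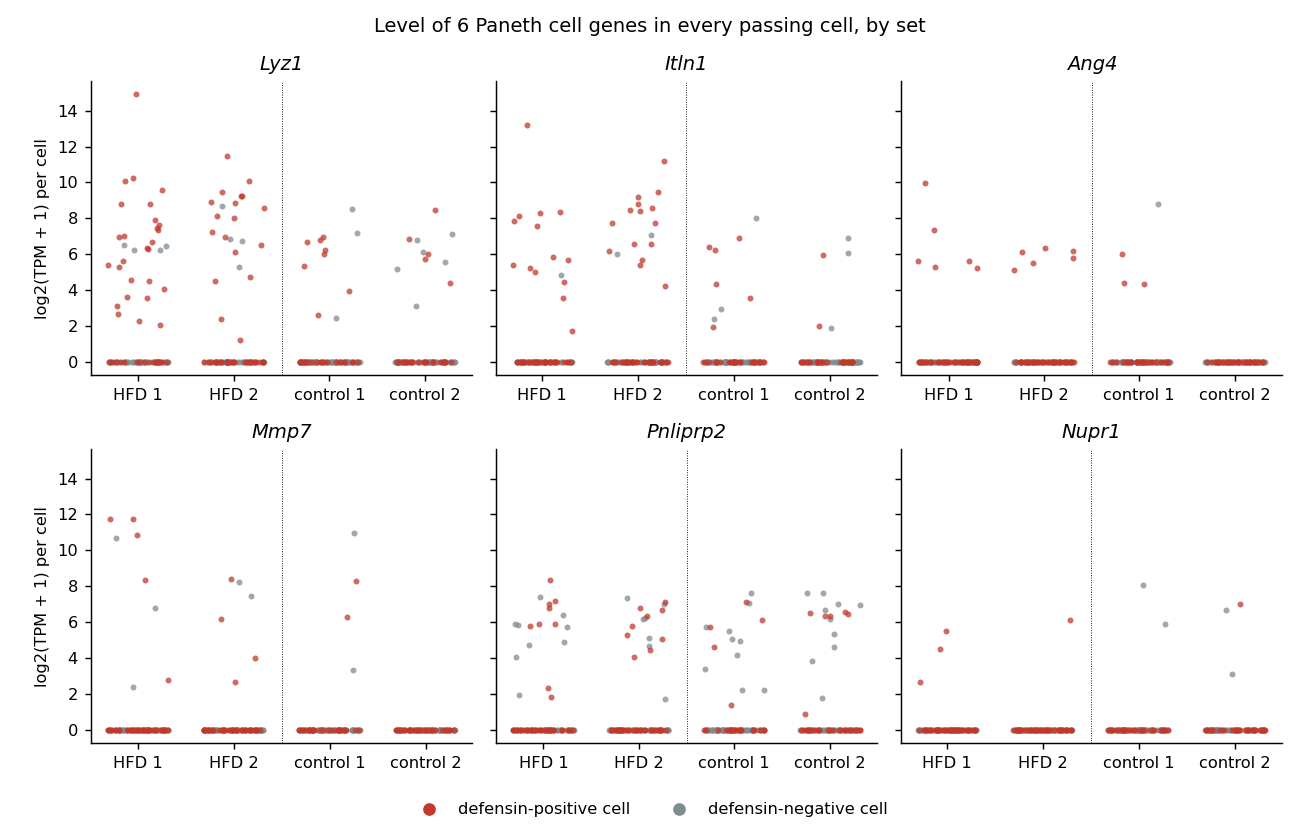
Level of each of the 6 genes in every passing cell as log2(TPM + 1), with HFD 1, HFD 2, control 1 and control 2 from left to right and small random sideways shifts. Each point is a cell, red for defensin-positive and grey for defensin-negative. Lyz1 and Itln1 have more and higher red points in the HFD sets, the single highest point is the HFD 1 cell with 30620 TPM of Lyz1, and Pnliprp2 was held by 16.1 to 19.8% of the cells of a set.

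**Figure D2:**
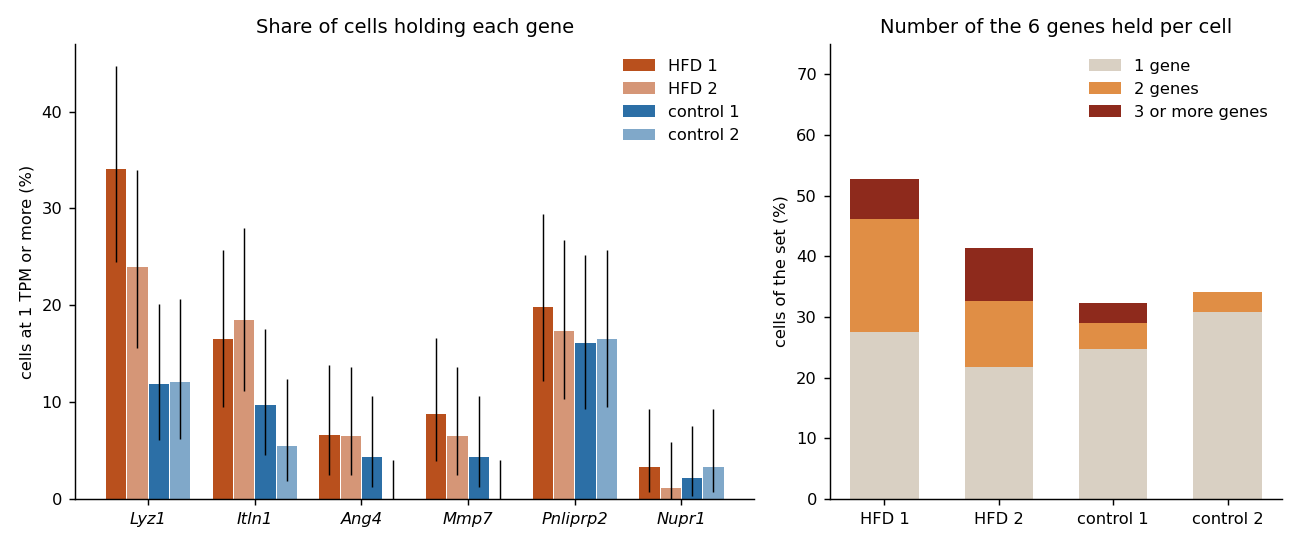
Left, percent of a set's passing cells that held each gene at 1 TPM or more, with 95% Clopper-Pearson intervals as lines, HFD sets in orange and control sets in blue. Right, percent of cells that held 1, 2, or 3 or more of the 6 genes. Lyz1 reaches 34.1% in HFD 1 and 11.8% in control 1, and no cell of control 2 held 3 or more genes.

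TPM is scaled by transcript length, so levels can be ordered between genes. In HFD the mean over both sets was 248.1 ± 215.0 TPM for Lyz1, 94.0 ± 37.9 TPM for Itln1, 64.5 ± 77.2 TPM for Mmp7, 13.5 ± 2.39 TPM for Pnliprp2, 9.16 ± 7.56 TPM for Ang4 and 0.756 ± 0.033 TPM for Nupr1 (SD, n = 2 sets). Of the neighbours in that order, only Ang4 and Nupr1 were further apart than the larger of their SDs. Single cells set these levels: without the HFD 1 cell that stands apart the HFD means were 80.2 ± 22.4 TPM for Lyz1, 63.3 ± 75.6 TPM for Mmp7, 42.6 ± 34.8 TPM for Itln1, 11.7 ± 0.066 TPM for Pnliprp2 and 3.76 ± 0.07 TPM for Ang4 (SD, n = 2 sets), with Mmp7 above Itln1. In control the order was Mmp7 at 12.9 ± 18.3 TPM, Pnliprp2 at 11.7 ± 4.21 TPM, Lyz1 at 11.2 ± 0.198 TPM, Itln1 at 4.46 ± 2.41 TPM, Nupr1 at 3.06 ± 0.653 TPM and Ang4 at 2.93 ± 4.14 TPM (SD, n = 2 sets). There only Lyz1 and Itln1 were further apart than the larger SD.

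Within the cells that held a gene, both the level and its spread were compared between sets. Lyz1 averaged 6.34 and 7.17 on the log2(TPM) scale in HFD 1 and HFD 2, against 5.64 and 5.90 in control 1 and control 2. Its SD over these cells was 2.78 and 2.61 in HFD and 2.05 and 1.48 in control, on the same scale. Itln1 averaged 6.29 and 7.48 in HFD, against 4.62 and 4.37 in control, with SDs of 2.77 and 1.77 in HFD and 2.32 and 2.64 in control. Pnliprp2 averaged 5.35 and 5.55 in HFD and 4.74 and 5.94 in control. The diets did not overlap in level for Lyz1 and Itln1 and in spread for Lyz1, each with an exact two-sided permutation p of 0.333, the smallest that 4 sets allow. The other 3 genes were held by fewer than 3 cells in at least 1 set and were not compared in this way.

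Of the HFD cells 95 of 183 were defensin-positive, against 61 of 184 control cells. Defensin-positive cells made up 84.9%, 90.6% and 100% of the HFD cells that held Lyz1, Itln1 and Ang4, beside 64.3% of those with Mmp7 and 52.9% of those with Pnliprp2. In control they made up 59.1%, 57.1% and 75% of the cells with Lyz1, Itln1 and Ang4, beside 50% of those with Mmp7 and 33.3% of those with Pnliprp2. Over all sets Lyz1 was held by 58 of 156 defensin-positive cells (37.2%) and by 17 of 211 defensin-negative cells (8.06%). Itln1 was held by 37 (23.7%) and 9 (4.27%) of the same cells, and Ang4 by 15 (9.62%) and 1 (0.474%). Mmp7 was held by 11 defensin-positive cells (7.05%) and 7 defensin-negative cells (3.32%). Pnliprp2 was held by 28 (17.9%) and 36 (17.1%), and Nupr1 by 5 (3.21%) and 4 (1.90%). The share of cells with Lyz1 was higher in defensin-positive than in defensin-negative cells in 4 of 4 sets, by 46.9 and 29.4 percentage points in HFD 1 and HFD 2 and by 21.9 and 6.13 in control 1 and control 2 (exact two-sided sign-flip p = 0.125, the smallest that 4 sets allow). The median number of genes above 0 was 6635.5 and 6448 in defensin-positive cells of HFD 1 and HFD 2, against 6915 and 6179 in defensin-negative cells of the same sets. In control 1 and control 2 it was 7016.5 and 6210 in defensin-positive cells, against 6830 and 6070.5 in defensin-negative cells.

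For the mean level, defensin-positive over defensin-negative cells paired by set, limma called none of the 6 genes, against 0.0343% of 11654 genes tested, and 3 of the 6 were at an unadjusted p under 0.05, as were 4.80% of all genes. Lyz1 was higher in defensin-positive cells in all 4 sets, by 6.43, 3.47, 1.03 and 1.37 on the log2 scale in HFD 1, HFD 2, control 1 and control 2. The mean of 3.07 ± 0.68 did not pass (SE, limma adjusted p = 0.418). Without the HFD 1 cell that stands apart the HFD 1 difference was 3.75 and the mean 2.40 ± 0.41 (SE, limma adjusted p = 0.108). Such an order in all 4 sets was found for 5.8% of the genes tested, and among the 6 genes for Lyz1 alone. Itln1 was higher in defensin-positive cells by 7.13, 4.56 and 1.12 in HFD 1, HFD 2 and control 1, and lower by a difference of -0.44 in control 2. The HFD 1 value for Itln1 was 4.41 without that cell. Pnliprp2 differed by 0.66, 0.18 and 0.16 in HFD 1, HFD 2 and control 1 and by -0.09 in control 2, and by 0.07 in HFD 1 without that cell. On the mean over cells of log2(TPM + 1), which weights the highest cells less, Lyz1 and Itln1 were called (limma adjusted p = 0.003575 and 0.0301), against 0.137% of all genes.

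Among the defensin-positive cells alone the diet difference of Lyz1 and Itln1 also passed the test. Lyz1 was held by 27 of 48 and 18 of 47 such cells in HFD 1 and HFD 2, against 8 of 30 and 5 of 31 in control 1 and control 2. Its mean in them was 751.7 and 173.9 TPM in HFD 1 and HFD 2, against 17.9 and 19.2 TPM in control 1 and control 2. These diets did not overlap, and the log2 fold change was 4.21 ± 0.47 (SE, limma adjusted p = 0.0002433). Itln1 was held by 14 of 48 and 15 of 47 such cells in HFD, against 6 of 30 and 2 of 31 in control. Its mean was 228.5 and 127.4 TPM in HFD 1 and HFD 2, against 10.3 and 2.04 TPM in control 1 and control 2, with a log2 fold change of 4.87 ± 0.49 (SE, limma adjusted p = 0.000101). These 2 of the 6 genes were called, against 0.273% of 11740 genes tested. Without the HFD 1 cell that stands apart the HFD 1 means were 116.1 TPM for Lyz1 and 33.9 TPM for Itln1, and the log2 fold changes were 2.87 for Lyz1 and 3.51 for Itln1 (limma adjusted p = 0.000465 and 0.0269), while without the whole HFD 1 set neither was called (0.684 and 0.776), and without control 2 Lyz1 was not (0.0739). Both calls were also lost on the mean over cells of log2(TPM + 1) (limma adjusted p = 0.0585 for Lyz1 and 0.0907 for Itln1), without a trend (0.369 and 0.334) and with no filter on low genes (0.77 each). Ang4 (log2 fold change 2.88, adjusted p = 0.198) and Mmp7 (3.57, 0.361) did not pass in limma. In control both were held by defensin-positive cells of control 1 alone.

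Defensin-positive cells of the diets differed in other ways beside these genes. Defensins themselves had a median sum of 225.2 and 156.9 TPM in defensin-positive cells of HFD 1 and HFD 2, against 76.3 and 49.1 TPM in control 1 and control 2. The 10 goblet cell markers summed to a mean of 1136 and 853.7 TPM in defensin-positive cells of HFD 1 and HFD 2, against 220.4 and 18.9 TPM in control 1 and control 2. A single cell gave 32.5% and 93.2% of that sum in HFD 1 and HFD 2, against 81.3% and 20.3% in control 1 and control 2. The median cell had 44.2 and 30.6 TPM in HFD, against 15.5 and 1.61 TPM in control. The number of goblet markers held at 1 TPM or more by at least 1 of these cells was 10 and 9 in HFD and 9 and 7 in control. The 10 stem cell markers summed to 11420 and 14070 TPM in HFD, against 10270 and 10470 TPM in control, with all 10 detected in each set. Olfm4 weighs most in such a sum: over all cells it alone averaged 9352 and 11770 TPM in HFD 1 and HFD 2. In control 1 and control 2 it averaged 6947 and 9267 TPM. The part of these differences in the Lyz1 and Itln1 results was not tested.

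In defensin-negative cells limma called none of the 6 genes, against 0.104% of 11548 genes tested, and 2 of the 6 (Nupr1 and Mmp7) were at an unadjusted p under 0.05, as were 9.68% of all genes. In control Mmp7 was held there by 2 of 63 cells of control 1 and by 0 of 60 cells of control 2. Lyz1 had a mean of 7.71 and 14.8 TPM there in HFD 1 and HFD 2, against 8.25 and 6.85 TPM in control 1 and control 2, which overlapped. Its log2 fold change was 0.46 ± 0.42 (SE, limma adjusted p = 0.762). Without the highest such cell of each set its mean was 5.697 and 5.815 TPM in HFD 1 and HFD 2. The control 1 and control 2 means were then 2.434 and 4.574 TPM, so the diets did not overlap, and limma did not call Lyz1. Itln1 had a mean of 0.640 and 4.43 TPM in HFD 1 and HFD 2, against 4.21 and 3.13 TPM in control 1 and control 2. Nupr1 and Ang4 passed the filter there through control cells alone and were held by no defensin-negative cell of either HFD set, 0 of 43 cells allowing a share of up to 6.98% and 0 of 45 cells one of up to 6.67%. In defensin-negative control cells Nupr1 was held by 2 of 63 and 2 of 60, and Ang4 by 1 of 63 and 0 of 60.

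A change of the diet difference with defensin class was tested on each set's defensin-positive minus defensin-negative log2 mean. None of the 6 genes was called by limma, against 0.0343% of 11654 genes tested, and 4 of the 6 were at an unadjusted p under 0.05, as were 5.21% of all genes. The difference was 5.51 ± 0.80 for Itln1 (SE, limma adjusted p = 0.0512), 3.75 ± 0.73 for Lyz1 (0.207) and 4.38 ± 0.84 for Ang4 (0.207). The Itln1 value lies next to the threshold: it was called without the HFD 1 cell that stands apart (4.15, limma adjusted p = 0.042) and with 4 more alpha-defensin genes counted that the table lists under older symbols (0.0295). Lyz1 was 2.41 without that cell (limma adjusted p = 0.0722). With the highest cell of each set and class left out, limma called none of the 10785 genes tested, Itln1 included. A single control 1 cell gave 95.8% of the Itln1 and 100% of the Ang4 in defensin-negative cells of its set. The control 1 mean of Itln1 in these cells was 4.21 TPM with it and 0.179 TPM without it.

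**Figure D3:**
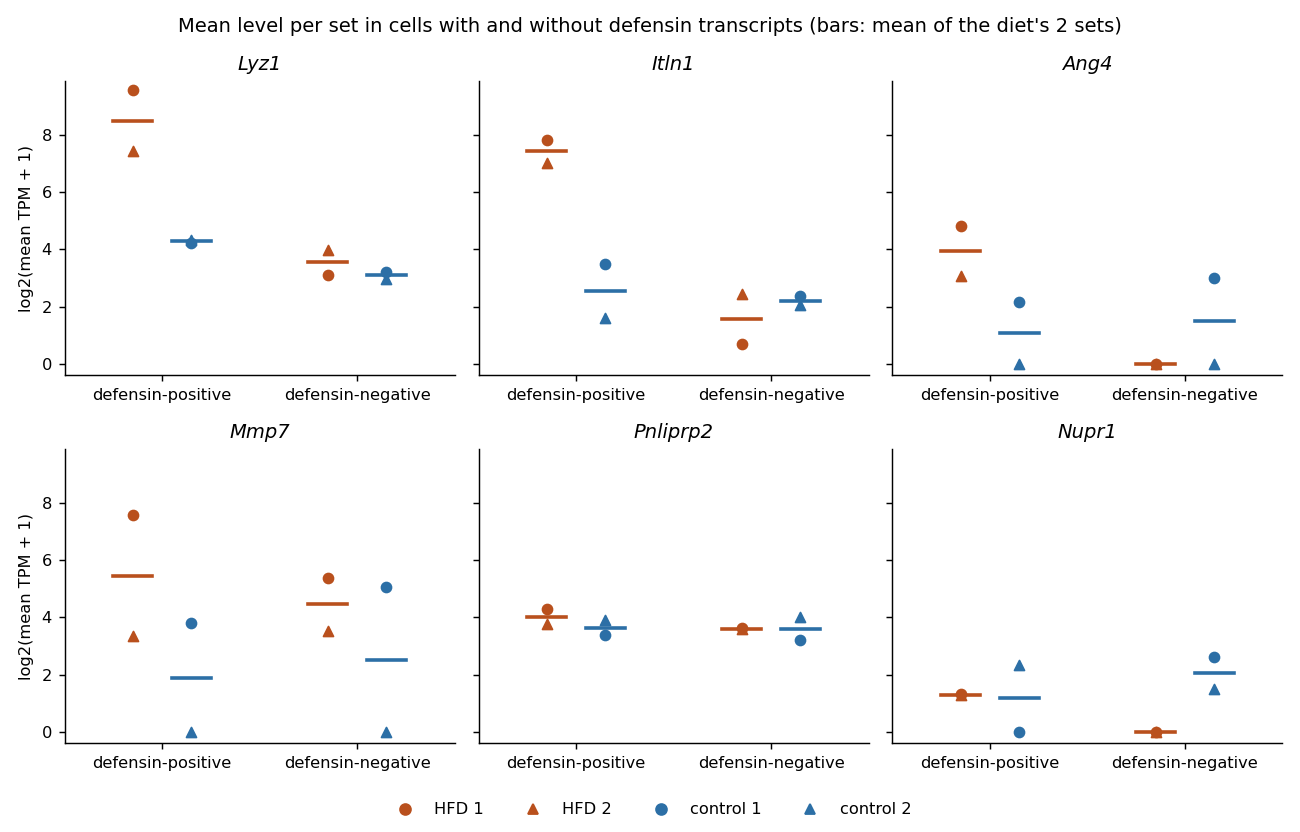
Mean level of each gene per set as log2(mean TPM + 1) in defensin-positive cells (left in each panel) and defensin-negative cells (right), HFD in orange and control in blue, circles for the sets numbered 1 and triangles for those numbered 2. Short lines are the mean of the diet's 2 sets. The HFD sets lie above the control sets for Lyz1 and Itln1 in defensin-positive cells, at 751.7 and 173.9 TPM against 17.9 and 19.2 TPM for Lyz1. A single cell gave 84.9% of the Lyz1 in those of HFD 1, which is at 116.1 TPM without it. In defensin-negative cells the diets overlap for both genes, but for Lyz1 not when the highest such cell of each set is left out.

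The Paneth cell genes came together in few cells. At least 2 of the 6 were held by 23 of 91 cells in HFD 1 (25.3%, 16.8 to 35.5%) and 18 of 92 in HFD 2 (19.6%, 12.03 to 29.1%), against 7 of 93 in control 1 (7.53%, 3.08 to 14.9%) and 3 of 91 in control 2 (3.30%, 0.685 to 9.33%). At least 3 were held by 6 and 8 cells in HFD 1 and HFD 2, against 3 and 0 cells in control 1 and control 2. Of the 41 HFD cells with at least 2 of the genes, 22 in HFD 1 and 16 in HFD 2 were defensin-positive. The share of cells with at least 1 of the genes was 52.7% and 41.3% in HFD, against 32.3% and 34.1% in control.

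Lyz1 and Itln1 were held together by 25 cells, which is 33.3% of the Lyz1 cells and 54.3% of the Itln1 cells, and 21 of these 25 were HFD cells. Of the 16 cells with Ang4, 14 held Lyz1 (87.5% of the Ang4 cells, 18.7% of the Lyz1 cells) and 12 held Itln1 (75% of the Ang4 cells, 26.1% of the Itln1 cells). Where both were held, Itln1 over Lyz1 had a median ratio of 0.534 and ran from 0.0142 to 49.3, so the pair was far from a fixed proportion. Lyz1 over the summed defensins had a median of 0.269 and ran from 0.00627 to 4.57 over 58 cells. Across the 367 cells, which share sets and totals of TPM, the Pearson correlation of log2(TPM + 1) was 0.51 between Lyz1 and Itln1, 0.49 between Lyz1 and Ang4 and 0.50 between Itln1 and Ang4, given as a description. Without the HFD 1 cell that stands apart these were 0.48, 0.43 and 0.44. Pnliprp2 also shared cells: 23 held it with Lyz1 (30.7% of the Lyz1 cells, 35.9% of the Pnliprp2 cells) and 12 with Itln1. The correlations over all 367 cells were 0.20 and 0.14.

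Over the same cells 8 genes correlated with Lyz1 at 0.5 or more, of which 6 are on the defensin list and the others are Itln1 and Gm21498 (0.55), a symbol that RefSeq gives as the older name of the alpha-defensin gene Defa36. For Itln1 there were 9, of which 6 are on the defensin list and the others are Gm21498 (0.53), Lyz1 and Ang4. For Ang4 there were 5, 4 of them on the defensin list and the other Itln1. These counts rest on the HFD 1 cell that stands apart: without it 5 genes reached 0.5 with Lyz1, 4 of them on the defensin list, 2 with Itln1, both on that list, and none with Ang4, the highest being at 0.47. No gene reached 0.5 with Pnliprp2, and Nupr1, held by 9 cells, was not compared.

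**Figure D4:**
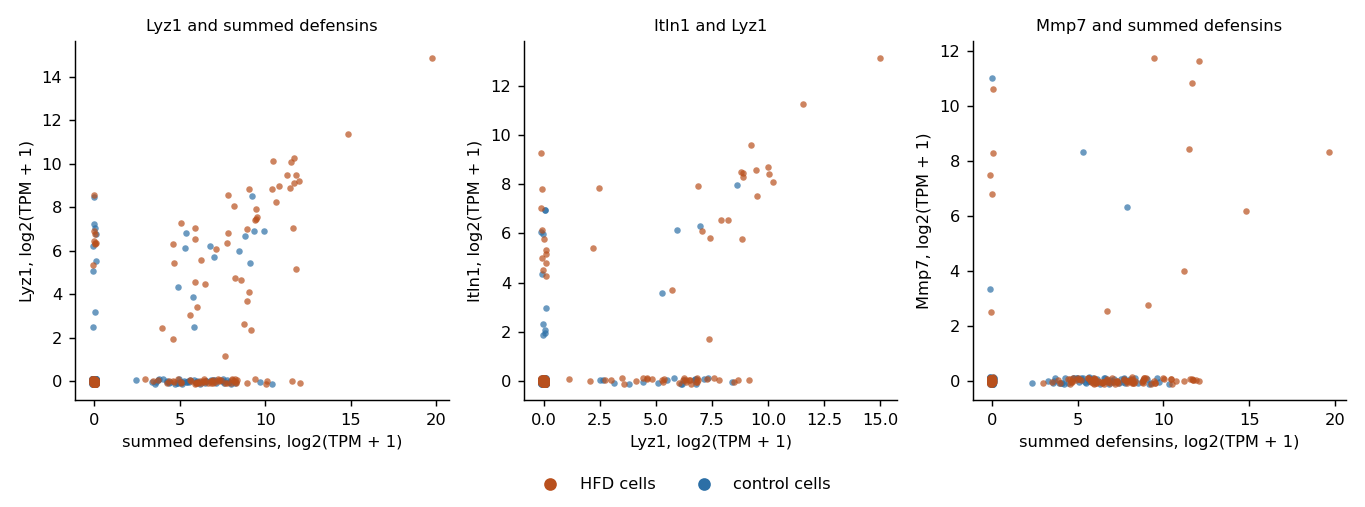
Level in each of the 367 passing cells as log2(TPM + 1), HFD cells in orange and control cells in blue, with small random shifts so that cells at 0 can be seen. Left, Lyz1 against summed defensins. Middle, Itln1 against Lyz1. Right, Mmp7 against summed defensins. The HFD 1 cell that stands apart is at the upper right of the left and middle panels, and high Mmp7 occurs with and without defensins.

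The genes most like Mmp7 were not defensins. Its 23 genes at a correlation of 0.5 or more held no gene of the defensin list, 5 genes of the other Paneth cell lists (Atoh1, Bhlha15, Habp2, Spdef and Wnt3) and 6 of the goblet list, Atoh1 and Spdef being on both, and the closest were Hepacam2 (0.86), Muc2 (0.76), Guca2a (0.75), Spdef (0.74) and Hpd (0.70) over the 367 cells. Muc2 encodes the main secreted intestinal mucin and Spdef a transcription factor of goblet and Paneth cell maturation, while Guca2a encodes guanylin, a peptide that stimulates intestinal fluid secretion. Of the 18 cells with Mmp7, 12 (66.7%) held at least 3 of the 10 goblet markers, against 29 of the 349 cells without it (8.31%). The 5 highest were at 3493, 3428, 1819 and 1648 TPM in HFD 1 and 2014 TPM in control 1. Of these, 4 held 8 goblet markers each, Muc2 and Tff3 among them, and the HFD 1 cell at 1648 TPM held 4. The control 1 cell at 2014 TPM held no defensin, 2657 TPM of Muc2 and 9919 TPM of Tff3, the trefoil peptide of goblet cells, beside 368.8 TPM of Lyz1 and 254.2 TPM of Itln1.

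Summed goblet markers averaged 6369 and 7662 TPM in the Mmp7 cells of HFD 1 and HFD 2, against 10400 TPM in those of control 1. A single cell gave 34.7% and 81.4% of that sum in HFD 1 and HFD 2 and 86.8% in control 1, and the median Mmp7 cell had 1044 and 313.2 TPM in HFD 1 and HFD 2, against 2730 TPM in control 1. At least 3 goblet markers were held by 9 of the 11 cells with 100 TPM of Mmp7 or more and by 3 of the 7 cells below. In cells without Mmp7 they averaged 111.0 and 54.1 TPM in HFD 1 and HFD 2, against 67.3 and 78.3 TPM in control 1 and control 2. Summed stem cell markers averaged 5069 and 5319 TPM in the Mmp7 cells of HFD 1 and HFD 2 and 5934 TPM in those of control 1, while cells without Mmp7 had 11750 and 14260 TPM in HFD and 8643 and 10900 TPM in control. By comparison at least 3 goblet markers were held by 16 of 75 Lyz1 cells (21.3%), 12 of 46 Itln1 cells (26.1%), 7 of 16 Ang4 cells (43.8%) and 13 of 64 Pnliprp2 cells (20.3%), and by 8.56%, 9.03%, 9.69% and 9.24% of the cells that lacked each of these genes. The part of goblet transcripts in the results on the Paneth cell genes was not tested.

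**Figure D5:**
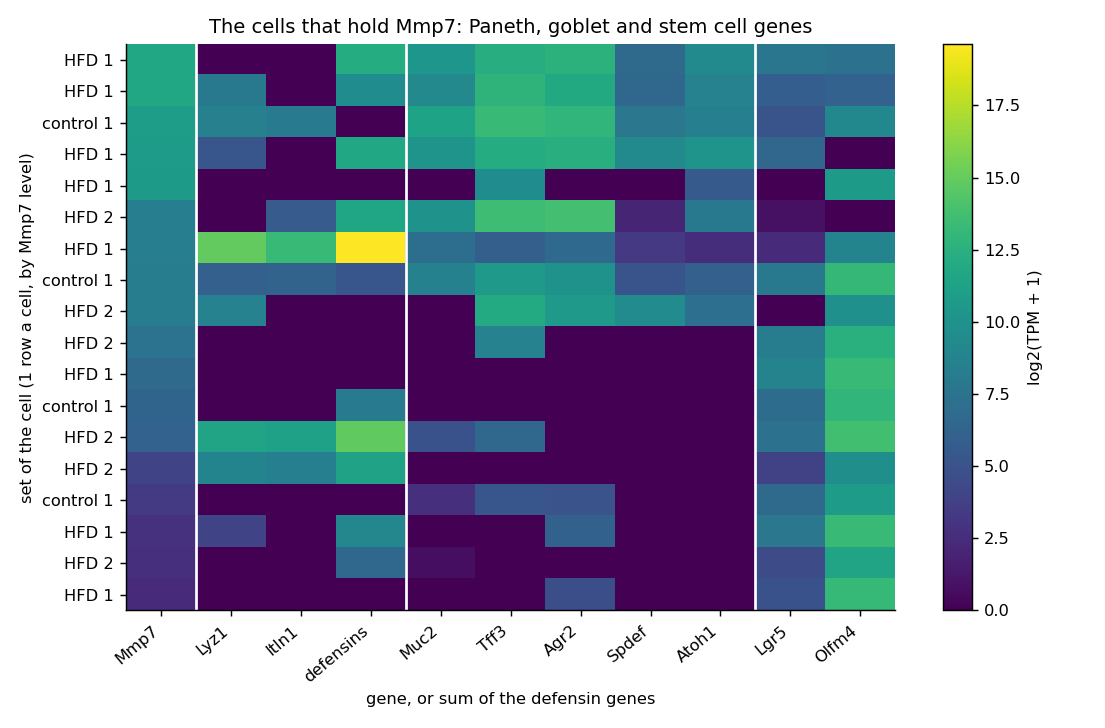
The 18 cells that held Mmp7, 1 per row and ordered by Mmp7 from 3493 TPM at the top to 4.33 TPM at the bottom, with the set of each cell at the left. Colour is log2(TPM + 1) of Paneth cell genes, goblet cell genes and stem cell genes from left to right. Most of the upper rows hold Muc2, Tff3 and Agr2, and most of the lower rows hold Lgr5 and Olfm4 with few goblet genes. Several upper rows hold Lgr5 too, among them the top row at 207.5 TPM.

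Genes of the Paneth cell were also read from lists, which hold the 6 genes themselves. Lyz1, Itln1, Ang4, Mmp7 and Pnliprp2 are on the list of secreted products, so its count and median repeat their results in part. Of the 19 secreted products outside the defensins 13 were tested in all cells, 4 rose in HFD and none fell. Over all genes 0.506% of 11665 were called in either direction. The median log2 fold change of the list was 1.72, against 0.13 over all genes. Beside Lyz1 and Itln1 the listed products that rose were Guca2b (2.25, adjusted p = 0.006684) and Clps (2.42, 0.0134), both in limma. Guca2b encodes uroguanylin and Clps the lipase cofactor colipase. Clps was held by 1 and 5 cells in HFD 1 and HFD 2, against 0 and 2 cells in control 1 and control 2. Clps, without the HFD 1 cell that stands apart, was at 0.74 and not called (limma adjusted p = 0.699), so 3 products rose, and the median of the list was 0.74. Markers of other cell types moved in the same comparison: 2 of the 9 goblet markers tested rose (Spdef, and Agr2 at 2.41, limma adjusted p = 0.0218), with a median of 1.45, and 1 of 6 enterocyte markers rose (Fabp1 at 3.41, limma adjusted p = 3.633e-08), with a median of 0.89. Their part in the result was not tested. Of 17 lineage regulators, receptors and niche signals 16 were tested, and Spdef rose (2.29, limma adjusted p = 0.0218), while Sox9, the Paneth cell fate factor, was at -0.03 and Atoh1, which sets the secretory fate, at 1.05 (limma adjusted p = 0.978 and 0.471). Spdef fell below the filter on low genes when the highest cell of each set was left out. Of the 29 defensin genes 25 were tested and 14 rose, and 12 of 17 tested rose without the HFD 1 cell that stands apart.

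In the families of the 6 genes, 12 of 23 members were tested and 3 were called, namely Itln1, Lyz1 and, as given above, Clps only with the HFD 1 cell that stands apart. Pnliprp1, a relative of Pnliprp2 on the list, was at 1.07 and did not pass (limma adjusted p = 0.32). Ang and Rnase4, whose loci overlap so that their reads may be shared, were at -0.49 and -0.63 and did not pass either (limma adjusted p = 0.562 and 0.349). Of 8 stress genes known beside Nupr1 5 were tested and none was called by limma (unadjusted p was under 0.05 for 0 of them), Atf4 being at 0.43 and Ddit3 at -0.32. In defensin-positive cells 3 of the 12 secreted products tested rose, Itln1, Lyz1 and Guca2b (3.87, limma adjusted p = 0.0436), and 2 of 12 without the HFD 1 cell that stands apart, Itln1 and Lyz1.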

How the data were processed

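The table holds 1 TPM value per gene and cell for single Lgr5-positive small intestinal cells. The authors made these deposited TPM values with Bowtie2 and RSEM against mm10, per the submitters' processing notes, and tool versions and the annotation are not stated in these sources. The TPM of a cell sums to between 999195.4 and 1000000.1, so the values are relative within a cell and the read depth is unknown. The table has 23420 rows, and 4 rows of duplicated symbols that had become dates were dropped.

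Diet and set came from the labels. Cells with fewer than 2000 genes above 0 were left out (8 of 375). A set counted as 1 replicate, 2 per diet. TPM was averaged over a set's cells, in all cells and by defensin class. Genes averaging 1 TPM or more were tested on log2(mean + 1) by limma 3.58.1 (R 4.3.3) with a mean-variance trend, two-sided, at a Benjamini-Hochberg adjusted p of 0.05. Classes were compared with the set as a block, and the diet difference by class on each set's class difference. The fits were run on simulated normal values whose spread followed the fitted mean-variance trend. Means carried by a single high cell were not simulated. Intervals are 95% Clopper-Pearson, and a count of 0 allows 3 cells. Both intervals and limits cover counting error only, and cells of 1 set are not independent. Correlations used log2(TPM + 1) over passing cells, and genes held by at least 10 cells. For each Paneth cell gene, the 5 most correlated genes were named where r was at least 0.5, defensins as a count, and of each list up to 4 genes that passed. Sequences are from GENCODE M21 and RefSeq. Other pseudocounts, filters, scalings, cell and class thresholds, and each set left out were tried. The genes, lists and tests were chosen with earlier results of these data known. The removal of 1 HFD 1 cell and the older defensin symbols were added after seeing the data.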

Additional observations from a re-analysis of the deposited data

Results flagged for a closer look

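The diet difference of 4 goblet cell genes differed between the defensin classes in limma, the test that called none of the 6 Paneth cell genes. HFD minus control of the class difference was 5.48 for Spink4 (adjusted p = 0.0007812), 4.98 for Agr2 (0.002981), 4.92 for Fcgbp (0.0129) and 4.19 for Tff3 (0.0129), on the log2 scale. Agr2 had a mean of 347.7 and 319.3 TPM in defensin-positive cells of HFD 1 and HFD 2, against 43.8 and 2.13 TPM in those of control 1 and control 2. In defensin-negative cells it had 26.1 and 72.0 TPM in HFD 1 and HFD 2, against 136.4 and 17.0 TPM in control 1 and control 2. Single cells carry these means: 1 cell gave 93.2% of the Agr2 in defensin-positive cells of HFD 2 and 1 cell 92.5% of that in defensin-negative cells of control 1. With the highest cell of each set and class left out none of the genes tested was called in limma (637 of 10785 were at an unadjusted p under 0.05), and Agr2 was at 3.44, Spink4 at 2.80, Fcgbp at 5.74 and Tff3 at 3.58 (adjusted p = 0.811, 0.811, 0.46 and 0.8).

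Among the 8 cells left out for having under 2000 genes, 1 cell of HFD 2 with 14 genes above 0 had 238600 TPM of summed defensins. The other 7 had none, and all 6 Paneth cell genes were listed at 0 in all 8.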

How the results depend on the processing

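The number of the 6 genes called in all cells, 2, became 0 with no filter on low genes, 1 in limma without a trend, 1 with Rn45s left out of the totals and 2 to 4 with a set left out. In defensin-positive cells, again 2, it became 0 with no filter, without a trend and on the mean of log2 values, and 0 to 4 with a set left out. In defensin-negative cells it was 0, and 0 to 1 with a set left out. For defensin-positive over defensin-negative cells it was 0, and 2 on the mean of log2 values. For the diet difference by class it was 0, and 1 with pseudocount 10, with the older defensin symbols or without the HFD 1 cell that stands apart, and 0 to 3 with a set left out. The cause was not tested. Where a set was left out, the lone set was assumed to vary like the others, so these counts measure no spread within its diet.

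Set numbers 1 and 2 occur in both diets, but nothing in the labels pairs them, and the deviations of like-numbered sets correlated at 0.23 over 11665 genes. With a replicate block Lyz1, Itln1, Ang4 and Mmp7, 4 of the 6 genes, were called in all cells and in defensin-positive cells, and Itln1, 1 of the 6, for the diet difference by class, and the calls over all genes in all cells went to 634, against 59 without it. Calls over all genes in all cells were 0 with no filter (1398 at an unadjusted p under 0.05), 6 without a trend, 6 with Rn45s left out, 14 with all cells and 40 with median-ratio scaling.

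In defensin-negative cells the log2 fold change of Itln1 (-0.64) was 0.54 and 0.17 with classes split at 100 TPM or by Defa symbols, and -1.50 to 0.23 with a set left out. That of Pnliprp2 (-0.006) was 0.11 on the mean of log2 values, 0.0008 with the split at 10 TPM and -0.39 to 0.38 with a set left out, and that of Mmp7 ran from -0.59 to 4.46. In defensin-positive cells that of Nupr1 (0.13) was -0.05 with pseudocount 10, -0.83 with the split at 100 TPM and -1.05 to 0.14 with a set left out. In all cells that of Pnliprp2 ran from -0.12 to 0.57 with a set left out. The class difference of Pnliprp2 was -0.010 with Defa symbols, and with a set left out that of Mmp7 ran from -0.48 to 0.67 and that of Nupr1 from -0.17 to 1.14.

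HFD minus control in the share of cells, averaged over the 6 genes, was 6.43 percentage points and was 5.17 to 7.69 over the alternatives run. For Nupr1 it ran from -1.64 to 0.57 with a set left out. The level of Pnliprp2 in its cells differed by 0.11, by -0.044 at 10 TPM and by -0.49 to 0.72 with a set left out. The averaged difference in spread, 0.22, ran from -0.0545 to 0.487 with a set left out. That of Itln1 (-0.21) was 1.01 at 10 TPM and -0.71 to 0.29 with a set left out, and that of Pnliprp2 ran from -0.31 to 0.15. The depth behind TPM is unknown, so a gene at 0 in a cell may have been missed.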
